A study of Homo sapiens with 47 samples.

Results

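The cells described here are the 12 of 47 single HEK293 cells with the lowest mean rank over 3 measures of cell cycle RNA. The measures were the shares of endogenous unique molecular identifiers (UMIs, tags that count the original cDNA molecules) taken by the histone gene HIST1H4C, by 6 mitotic genes (UBE2C, TOP2A, CKS2, CDK1, CCNB1 and CDC20) and by 6 replication genes (PCNA, MCM2, MCM4, MCM5, MCM6 and GINS2). The cells were chosen by these measured shares: each was ranked over the 47 cells, a mean of the 3 ranks was taken, and the 12 lowest cells, called low cells from here on, were set against the other 35. HEK293 cells are an immortal line made from human embryonic kidney and carry adenovirus DNA. Per the labels' protocols, the cells grew in DMEM with glutamine and fetal calf serum, were captured on a Fluidigm C1 circuit and lysed there with ERCC spike-in RNAs, and 5′ ends were sequenced. The low cells and the other cells have the same line, medium and run, the labels name no treatment and no sorting by cycle phase, and cells are named by the number in their labels.

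Cycle RNAs come and go with the steps they serve. Histone mRNAs accumulate while DNA is copied and are degraded when copying ends. The minichromosome maintenance (MCM) helicase, its loaders and the enzymes of nucleotide supply are transcribed at the entry into S phase, largely through E2F factors. Genes of the spindle, the kinetochore and mitotic exit peak in G2 and M phase, many through a promoter element called CHR, and their mRNAs decay in the following G1. Early G1 is thus a part of the cycle in which all of these RNAs are low. The rule looked for candidates of that kind, and neither DNA content nor phase was measured.

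The promoters of 4 cycle genes, picked as examples that hold the letters, show the elements by which these sets are known. All are windows from 250 bases before to 50 bases after the transcription start, written 5′ to 3′ on the strand of the gene, from RefSeq (assembly GRCh38.p14). CDC20, an activator of the anaphase-promoting complex, and PCNA, the sliding clamp of DNA polymerases, belong to the rule. ZWINT, a kinetochore protein, and MCM7, a helicase subunit, do not. By summed share PCNA, ZWINT and MCM7 were lower in the low cells and CDC20 was higher. CDC20 lies at chr1:43358731-43359030 on the plus strand, ZWINT at chr10:56361210-56361509, PCNA at chr20:5126573-5126872 and MCM7 at chr7:100101348-100101647, the last 3 on the minus strand. Capitals mark the CHR letters TTTGAA in CDC20 and ZWINT, and the E2F letters TTTCCCGC or TTTCGCGC in PCNA and MCM7, on either strand.
CDC20: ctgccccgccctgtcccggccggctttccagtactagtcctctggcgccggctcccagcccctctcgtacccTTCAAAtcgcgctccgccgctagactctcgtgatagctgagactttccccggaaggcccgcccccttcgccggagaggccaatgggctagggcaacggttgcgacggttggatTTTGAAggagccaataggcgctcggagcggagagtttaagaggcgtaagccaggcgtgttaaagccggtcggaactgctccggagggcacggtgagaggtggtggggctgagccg
ZWINT: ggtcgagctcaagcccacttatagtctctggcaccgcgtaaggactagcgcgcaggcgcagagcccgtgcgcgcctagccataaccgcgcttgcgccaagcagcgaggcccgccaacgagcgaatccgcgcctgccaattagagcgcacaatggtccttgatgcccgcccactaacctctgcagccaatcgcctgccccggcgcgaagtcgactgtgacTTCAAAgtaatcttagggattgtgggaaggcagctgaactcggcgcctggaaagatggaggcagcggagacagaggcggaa
PCNA: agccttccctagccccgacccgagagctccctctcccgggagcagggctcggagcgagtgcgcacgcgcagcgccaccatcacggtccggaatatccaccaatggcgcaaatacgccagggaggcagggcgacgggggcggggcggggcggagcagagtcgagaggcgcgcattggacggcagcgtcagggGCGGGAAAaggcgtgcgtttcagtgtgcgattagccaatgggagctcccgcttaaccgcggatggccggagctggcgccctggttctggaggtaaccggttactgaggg
MCM7: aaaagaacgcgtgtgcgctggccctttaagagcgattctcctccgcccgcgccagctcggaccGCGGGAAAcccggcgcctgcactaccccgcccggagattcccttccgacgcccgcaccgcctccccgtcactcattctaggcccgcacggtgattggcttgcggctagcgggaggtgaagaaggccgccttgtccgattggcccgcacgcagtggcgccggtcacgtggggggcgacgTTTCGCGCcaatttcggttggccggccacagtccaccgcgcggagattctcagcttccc
The search used CHR as TTTGAA, E2F as TTTGGCGC, TTTGCCGC, TTTCGCGC or TTTCCCGC, and CCAAT, each on both strands. Of all 27305 promoters listed, 15.4% held CHR, 3.33% E2F and 35.7% CCAAT letters.

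The label of the cells as low in all cycle gene sets held for 5 of the 12. These were cells 10, 14, 17, 74 and 75, which were under the median of the 47 cells in every set, as were 0 of the other 35. The remaining 7 were under it in 2 sets, as were 13 of the 35. HIST1H4C was under its median in 12 of 12 low cells, the mitotic genes in 9 and the replication genes in 8, against 11, 14 and 15 of the 35 other cells. Cells 18, 16 and 44 had mitotic shares of 0.330%, 0.249% and 0.163%, at ranks 45, 41 and 31 of 47. The low cells are thus low in histone H4 RNA throughout and mixed in mitotic RNA, and they are named here by the rule and not by a phase.

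The 3 shares chose the cells, so they are given as a description. HIST1H4C, a histone H4 gene, took 0.0905% at the lowest, 0.144% at the median and 0.311% at the highest of the low cells, against 0.109%, 0.775% and 1.63% of the other cells. Of the other cells 28 lay above the highest low cell. The mitotic genes took 0.0793%, 0.110% and 0.330% in the low cells, against 0.0702%, 0.145% and 0.389% in the others, so these ranges lay over each other almost entirely. For the replication genes the lowest, median and highest were 0.0345%, 0.0714% and 0.0857% in the low cells and 0.0299%, 0.0848% and 0.160% in the others, 17 of which lay above every low cell. At the edge of the choice, cells 16, 17 and 20 had mean ranks of 17, 17 and 17.7, and cells 7, 67 and 55 just outside had 18.3, 18.3 and 18.7.

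**Figure D1:**
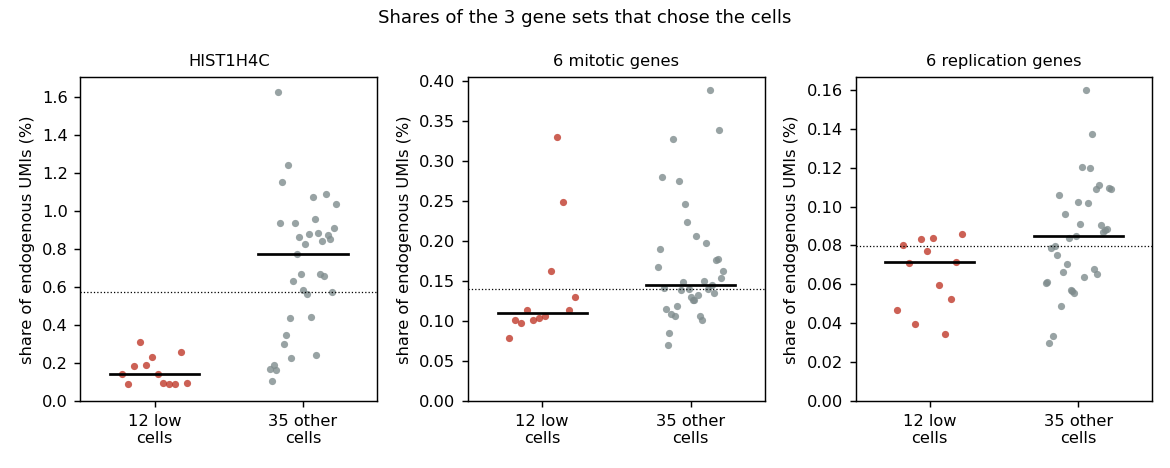
Share of endogenous UMIs (%) of HIST1H4C, the 6 mitotic genes and the 6 replication genes in each of the 12 low cells and the 35 other cells; points are cells, bars are group medians, dotted lines the median of all 47. The low cells lie under the dotted line in 12, 9 and 8 cases, and mitotic shares of 0.330% and 0.249% stand above it.

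Single genes of the rule moved apart within the mitotic set. All of the following are log2 folds of the share of summed UMIs in the low cells over that in the other cells. HIST1H4C was at -2.15. CDK1, the kinase that drives entry into mitosis, was at -1.19, UBE2C, the ubiquitin-conjugating enzyme of the anaphase-promoting complex, at -0.66 and TOP2A, the topoisomerase that untangles chromosomes, at -0.49. CDK1 was at -1.81 without cell 18, which held 37 of its 88 UMIs in the low cells. The sizes for UBE2C and TOP2A also moved with single cells. With any 1 cell left out UBE2C ran from -1.14 to -0.53 and TOP2A from -0.90 to -0.35, so both stayed below 0. CDC20 was at 0.58, CCNB1, the cyclin partner of CDK1, at 0.29 and CKS2, a small CDK-binding protein, at 0.07. UBE2C had 0.307, 1.29 and 8.20 UMIs per 10000 endogenous UMIs at the lowest, median and highest of the low cells, against 0.319, 2.84 and 11.9 in the others. CDC20 had 0, 1.17 and 2.46 in the low cells and 0, 0.721 and 2.10 in the others, with 10 of the 12 above the median of the 35. The replication genes ran one way, from -0.26 for GINS2, a subunit of the replicative helicase, to -0.72 for MCM6, with PCNA at -0.38, MCM2 at -0.34, MCM4 at -0.32 and MCM5 at -0.69.

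Low cells held somewhat fewer UMIs and a similar number of genes at equal depth. Endogenous UMIs were 32527 at the lowest, 53906 at the median and 69866 at the highest of the low cells, against 29325, 60289 and 138647 of the others, 14 of which lay above every low cell. Spike-in UMIs were 2665, 3218.5 and 3987 in the low cells and 2573, 3639 and 4717 in the others, so spike-in counts differed in the same direction. Endogenous UMIs per spike-in UMI, a measure of RNA content, were 10.9, 16.2 and 22.1 in the low cells and 8.99, 18.7 and 29.8 in the others. The log2 ratio of the medians was -0.21, but -0.55 among cells numbered up to 48 (7 low, 23 other) and 0.18 among those above 48 (5 low, 12 other), so its direction turned with the number in the label. The labels do not say whether that number marks a batch. After every cell was thinned to 29325 UMIs, 4456, 5221 and 5555 genes had a UMI in the low cells, against 4202, 5197 and 5659 in the others.

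**Figure D2:**
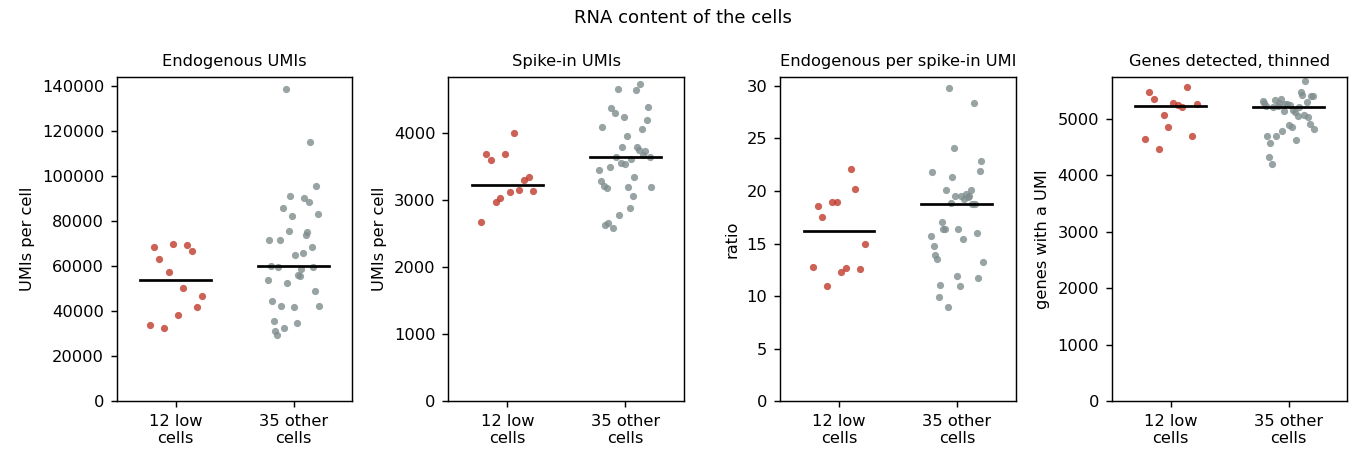
Endogenous UMIs, spike-in UMIs, endogenous UMIs per spike-in UMI, and genes with a UMI after thinning each cell to 29325 UMIs, for the 12 low cells and the 35 other cells; points are cells and bars are group medians. No low cell exceeds 69866 endogenous UMIs, while 14 of the other cells do, and thinned gene counts overlap throughout.

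All cells come from 1 line and 1 run, and the labels name no separate cultures, so each set of cells is 1 sample and no p-value is given. The low cells summed to 638955 endogenous UMIs and the others to 2280243. A gene outside the rule with at least 300 UMIs was called when its summed share differed by 1.5-fold or more and still did with any 1 of the 47 cells left out. Called lower in the low cells were 19 of 1457 genes (1.3%), and called higher were 3 (0.206%). The median log2 fold of all 1457 was -0.02, with quartiles of -0.17 and 0.12. Of 22 spike-ins put through the same rule 0 were called, and their log2 folds ran from -0.07 to 0.40. Cell 52, one of the others, stood apart with 12.1% of its UMIs in mitochondrial mRNA; without it 19 genes were called lower and 4 higher, 18 and 3 of them the same. Intervals below are 95% exact binomial, for counting error only.

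**Figure D3:**
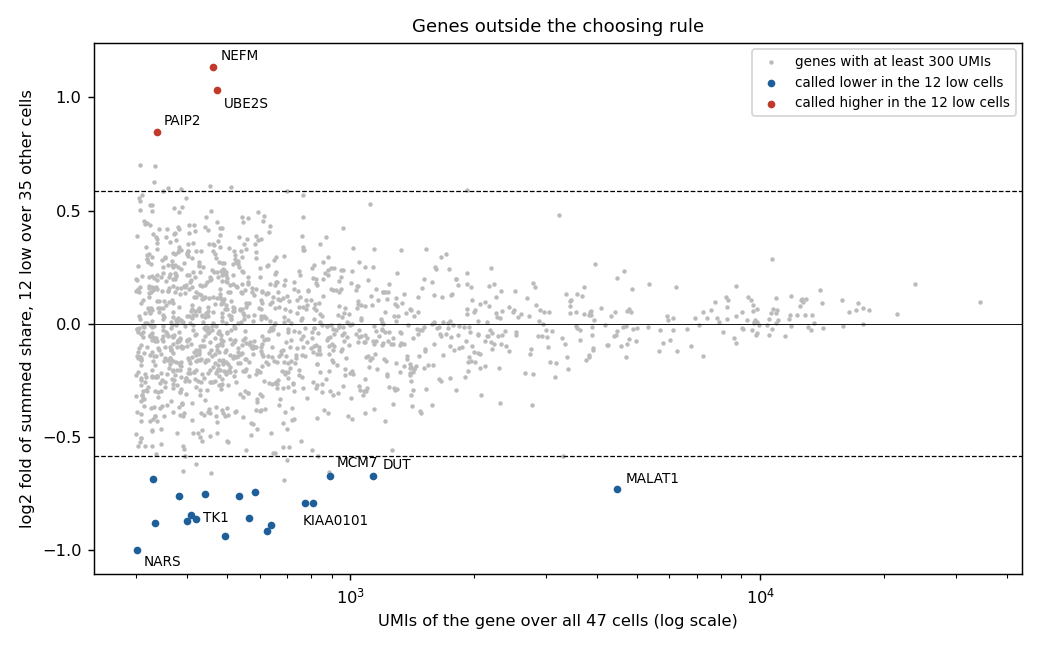
Log2 fold of the summed share, 12 low cells over 35 other cells, against the UMIs of the gene over all 47 cells (log axis), for 1457 genes outside the rule; blue points were called lower, red points higher, and dashed lines mark 1.5-fold. The 19 genes below and 3 above include DUT, MCM7, TK1 and KIAA0101 on the lower side and UBE2S on the higher.

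Genes of the replication fork and of nucleotide supply stood among the lower ones. KIAA0101, which encodes a factor bound to PCNA, had 0.307, 1.57 and 2.72 UMIs per 10000 at the lowest, median and highest of the low cells, against 0.699, 3.20 and 5.86 in the others, and all 12 low cells lay under the median of the 35. Its summed level was 1.77 against 3.07 per 10000, a log2 fold of -0.79 (interval -1.09 to -0.51). TK1, the thymidine kinase that salvages thymidine, had 0.198, 0.833 and 1.74 in the low cells and 0.339, 1.25 and 4.45 in the others, with a log2 fold of -0.86 (interval -1.29 to -0.45). DUT, which removes dUTP and makes the precursor of dTTP, had 1.47, 2.52 and 5.05 in the low cells and 1.22, 4.16 and 6.85 in the others, with 11 of 12 low cells under the median of the 35 and a log2 fold of -0.67 (interval -0.92 to -0.44). These genes differed in how evenly the cells shared the shift: for TK1 the log2 fold was -1.49 in cells numbered up to 48 and -0.16 in those above, for KIAA0101 it was -1.03 and -0.63, and for DUT -0.86 and -0.47. The values also depended on HIST1H4C in the choice of cells: with ranks from the other 2 sets, 5 of the 19 genes were called lower, and KIAA0101, TK1 and DUT were at -0.27, -0.26 and -0.28. Ranks from thinned cells, which exchanged cell 20 for cell 7, kept 8 of the 19 calls, with TK1, DUT, MCM7 and ZWINT among those lost.

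On the list of fork and nucleotide supply genes 16 of 43 passed the minimum, 2 were called lower (TK1 and DUT) and 0 higher, and their median log2 fold was -0.13. The share of the list summed over cells was 0.421% in the low cells and 0.497% in the others, a log2 fold of -0.24. Its highest members by UMIs, RPA2 and RPA3, subunits of the single-strand DNA binding complex, were at -0.17 and -0.03. With a minimum of 80 UMIs, 24 of 32 members were below 0, against 51.8% of 4328 genes. Chosen after their values were seen, RRM1 and RRM2, the ribonucleotide reductase subunits, were at -0.57 and -0.48.

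Few origin licensing genes were abundant enough to test, and MCM7 was called lower. MCM7, a subunit of the MCM helicase that the rule did not use, had 1.15, 1.96 and 3.64 UMIs per 10000 at the lowest, median and highest of the low cells, against 1.72, 2.93 and 6.89 in the others. Its log2 fold was -0.67 (interval -0.95 to -0.41), with -0.94 in cells numbered up to 48, -0.43 above and -0.37 with ranks that left out HIST1H4C, and 11 of 12 low cells lay under the median of the 35. It was 1 of the 2 members of 16 that passed the minimum; the other, GMNN, the inhibitor of origin licensing, was at -0.09. The summed share of the list was 0.114% in the low cells and 0.141% in the others (log2 fold -0.31), with -0.57 in cells numbered up to 48 and -0.07 above. With a minimum of 80 UMIs, 10 of 13 members were below 0 and 3 above. Their ends, picked after their values were seen, were CDC45, a helicase subunit, at -1.46 on 19 and 186 UMIs, and CDT1, which loads the helicase, at 0.41 on 47 and 126.

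Other replication histones were lower as well. No member of the 39 further replication histones reached 300 UMIs, so 0 were tested, and the sum of the list is given. It took 0.00863%, 0.0206% and 0.0544% at the lowest, median and highest of the low cells, against 0.00917%, 0.0612% and 0.137% in the others. The summed shares were 0.0233% and 0.0571%, a log2 fold of -1.29 (interval -1.55 to -1.05), and 7 of the 8 members with at least 50 UMIs were below 0. Some linker and core genes, picked after their values were seen, were nearly absent from the low cells. HIST1H1D, a linker histone gene, had 1 UMI in the low cells and 106 in the others, and its share was 29.7-fold higher in the others (interval 5.22 to 1184). HIST1H3B, a histone H3 gene, had 3 and 138 UMIs, and HIST1H2AM, an H2A gene, had 3 and 90. HIST1H1E, another linker gene, had 13 and 182. HIST1H2BK, an H2B gene that also yields polyadenylated mRNA, was at -0.34. Without HIST1H4C in the ranking, 7 of the 12 cells were chosen again and the log2 fold of the histone list was -0.06. Histone genes have near-identical copies, and most histone mRNAs have no poly(A) tail for the oligo-dT primer, so the levels are uncertain. Replication-independent variants, which are made through the whole cycle, had a summed log2 fold of -0.10 (interval -0.19 to -0.01). H3F3A was at -0.22, H3F3B at -0.15 and H1FX at 0.10. Of their 5 tested members 0 were called, against 1.3% called lower and 0.206% called higher of all tested genes. At those shares 0 of 5 does not show that the variants were level.

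**Figure D4:**
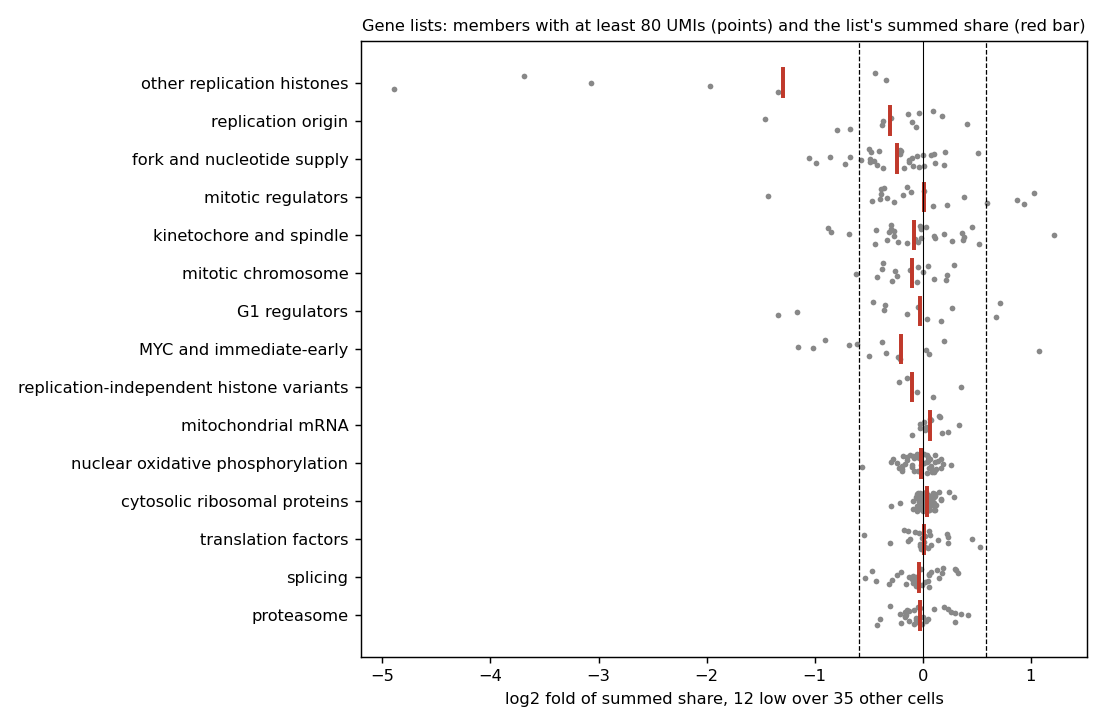
Log2 fold, 12 low cells over 35 other cells, of each gene with at least 80 UMIs in 15 gene lists (points) and of the summed share of the list (red bar); dashed lines mark 1.5-fold. The bars of the other replication histones (-1.29), replication origin (-0.31) and fork and nucleotide supply genes (-0.24) lie left of 0, those of ribosomal proteins (0.04) and proteasome genes (-0.03) next to it.

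Mitotic regulators outside the rule had log2 folds on both sides of 0, and 1 was called higher. Of 22 mitotic regulators 7 were tested, 5 of them below 0 with a median of -0.33, against 55.1% below 0 among all tested genes. Of the 7, 0 were called lower and 1 higher, and the summed share, UBE2S included, was 0.212% in the low cells and 0.209% in the others. Down to 80 UMIs, 11 of 19 regulators were below 0 and 8 above, against 51.8% of 4328 genes below 0. The called gene was UBE2S, which extends ubiquitin chains for the anaphase-promoting complex. It had 0.730, 2.04 and 8.30 UMIs per 10000 at the lowest, median and highest of the low cells, against 0.154, 1.22 and 3.92 in the others, with a log2 fold of 1.03 (interval 0.75 to 1.31). Cells 10 and 16, at 8.30 and 6.60, were above all 35 others, while 5 low cells lay under the median of the 35. It was 1.48 in cells numbered up to 48 and 0.21 in those above. The log2 fold was 0.56 without the 3 low cells at or above the mitotic median. BUB3 and MAD2L1, proteins of the spindle checkpoint, were at -0.33 and -0.39, and PTTG1, the securin, was at 0.39. PLK1, a mitotic kinase, was at 0.59 and FBXO5, an inhibitor of the anaphase-promoting complex, was at -1.43 on 10 and 96 UMIs; both were picked after their values were seen.

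Of 39 kinetochore and spindle genes 12 were tested, 9 of them below 0 with a median of -0.11, and ZWINT was called lower. It had 0.238, 0.706 and 1.07 UMIs per 10000 at the lowest, median and highest of the low cells, against 0.237, 1.26 and 4.67 in the others, with a log2 fold of -0.88 (interval -1.37 to -0.42) and all 12 low cells under the median of the 35. The log2 fold was -0.29 with ranks that left out HIST1H4C. HN1 was at -0.29, CENPW, a histone-fold protein of the centromere, at -0.04 and TUBB4B, a beta-tubulin, at -0.02. HMMR, a spindle-binding protein picked after its values were seen, was at 1.22 on 47 and 72 UMIs. The summed shares were 0.354% in the low cells and 0.373% in the others. Down to 80 UMIs, 18 of 29 members were below 0 and 11 above. Without the 3 low cells that had mitotic shares at or above the median, the log2 fold of the list was -0.23, against -0.08 with them, and that of the mitotic regulators was -0.18, against 0.02. Mitotic chromosome genes had 0 of 8 tested members called and 6 below 0, with H2AFZ at -0.12, HMGB1 at -0.05 and HMGN2 at 0.11.

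Regulators of G1 were mostly too rare to test. CDK4, the kinase partner of the D cyclins, was the 1 member of 26 that passed the minimum and was at -0.14. The summed share was 0.108% in the low cells and 0.109% in the others. With a minimum of 80 UMIs, 7 of 12 members were below 0 and 5 above. Picked after their values were seen, CCND3, a D cyclin, was at 0.68, and CDK2, which acts with the E cyclins, at -1.33 on 15 and 135 UMIs. CDKN2C, an inhibitor of CDK4 and CDK6, was at -1.16. Among MYC and immediate-early genes 0 of 4 tested members were called, with ID2 at -0.60, ID3 at -0.38 and HES1 at 0.19. MYC, the other tested member, was at -0.21. It, DUSP1 at -1.16 and EGR1 at 1.08 were picked after their values were seen. Of 14 members with at least 80 UMIs 10 were below 0 and 4 above. Lists of p53 targets and of cell death and quiescence genes had no member past the minimum, and their summed log2 folds were -0.01 and 0.09.

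**Figure D5:**
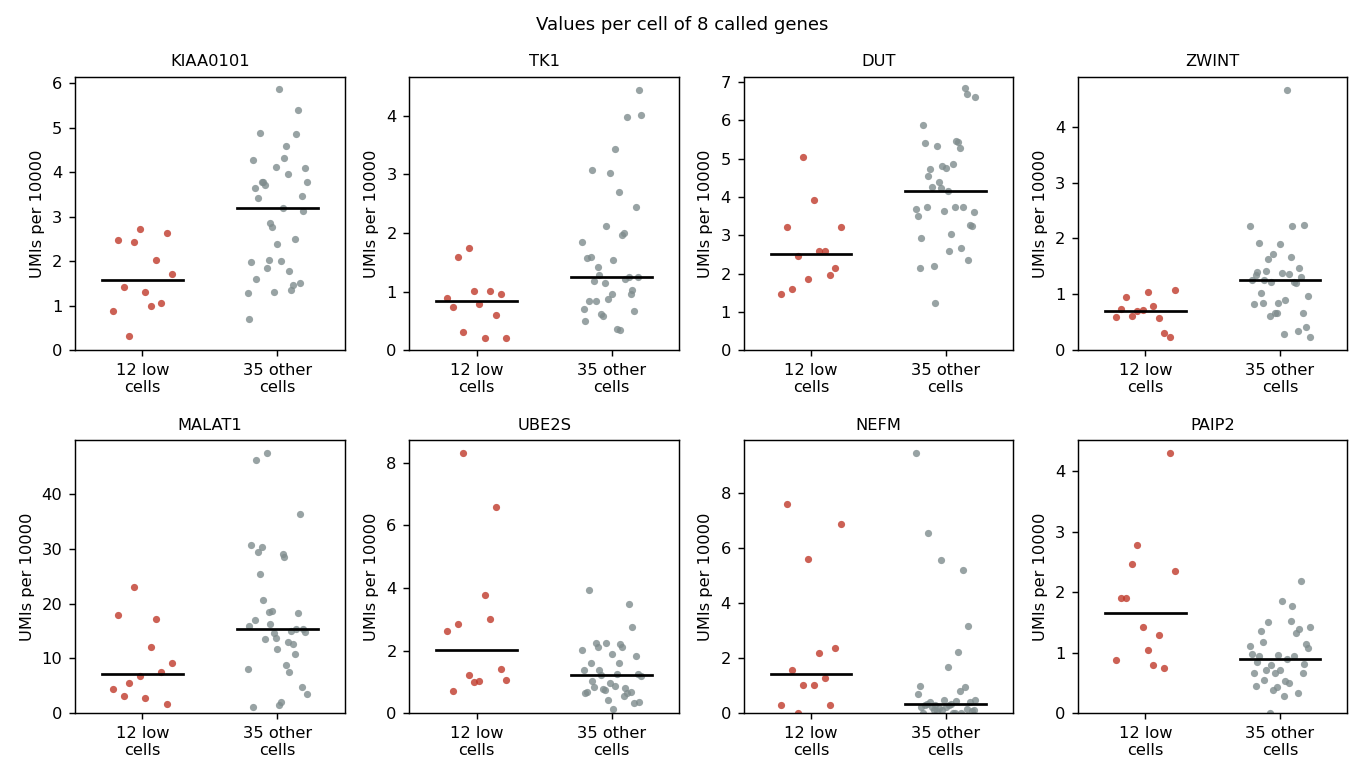
UMIs per 10000 endogenous UMIs of 8 called genes in each of the 12 low cells and the 35 other cells; points are cells and bars are group medians. KIAA0101, TK1, DUT, ZWINT and MALAT1 have lower medians in the low cells (7.11 against 15.4 for MALAT1), and UBE2S, NEFM and PAIP2 higher ones, with overlap in every panel.

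The other lower genes came from several functions. MALAT1, a nuclear long non-coding RNA, had 1.67, 7.11 and 22.99 UMIs per 10000 at the lowest, median and highest of the low cells, against 1.12, 15.4 and 47.4 in the others, with a log2 fold of -0.73 (interval -0.85 to -0.61) on 646 and 3822 UMIs. It was -0.06 when the cells were ranked without HIST1H4C and -1.88 for the 5 cells under the median in all sets. NARS and WARS, which charge tRNAs with asparagine and tryptophan, were at -0.9995 and -0.87. UBE2A, a ubiquitin-conjugating enzyme of DNA damage tolerance, was at -0.94, CRABP2, a retinoic acid carrier, at -0.89 and RBM4, an RNA-binding splicing regulator, at -0.85. SRI, the calcium-binding protein sorcin, was at -0.79 and HSP90B1, the HSP90 of the endoplasmic reticulum, at -0.74. WBP5 and the clone-named RP6-24A23.7 were at -0.86 and -0.92. The remaining called genes were HNRNPA3, CDC5L, TMEM18 and RN7SL1, from -0.68 to -0.76. All 12 low cells lay under the median of the 35 for KIAA0101, RBM4, RP6-24A23.7, SRI and ZWINT. These were 5 of the 8 genes with that pattern among the 1457 tested (0.549%). RBM4, HNRNPA3, RN7SL1, DUT and UBE2S have close copies or pseudogenes, so reads may have been shared.

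NEFM and PAIP2 were the other higher genes. NEFM, the medium neurofilament subunit, had 0, 1.44 and 7.59 UMIs per 10000 at the lowest, median and highest of the low cells, against 0, 0.341 and 9.43 in the others, with a log2 fold of 1.13 (interval 0.86 to 1.41). Cells 57, 20 and 75 had 7.59, 6.85 and 5.58, and cell 7, the first outside the choice, had the highest value of all. The log2 fold was 0.29 in cells numbered up to 48 and 2.54 in those above, so the size rested on cells numbered above 48. NEFL, the light subunit, picked after its values were seen, was at 1.15 on 43 and 69 UMIs, and UCHL1, a neuronal ubiquitin hydrolase, was at 0.26. PAIP2, which represses translation by binding poly(A)-binding protein, had 0.750, 1.66 and 4.29 in the low cells and 0, 0.898 and 2.18 in the others, with a log2 fold of 0.85 (interval 0.51 to 1.18). It ran from 0.60 to 1.10 over the alternatives. PAIP2 was not called with spike-in scaling, with the 8 or 16 lowest cells or with ranks from thinned cells. When HIST1H4C was left out of the ranks, none of NEFM, PAIP2 and UBE2S was called.

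Among markers of other cell types the summed neuronal list was higher in the low cells, mainly through NEFM, UCHL1 and NEFL, and the other lists were rare. With 6 of 16 listed markers present as rows, kidney epithelium had 35 UMIs in the low cells and 110 in the others, fibroblasts (3 of 10) had 3 and 19, and blood and immune cells (4 of 12) had 4 and 17. Neuronal markers, with 8 of 16 present as rows, took 0.0210%, 0.0591% and 0.118% of UMIs at the lowest, median and highest of the low cells, against 0.00928%, 0.0361% and 0.133% in the others. The summed shares were 0.0687% and 0.0452%, a log2 fold of 0.61 (interval 0.44 to 0.77), and 7 of the 12 low cells lay above the upper quartile of the 35. NEFM held 176 of the 439 UMIs of that list in the low cells and 286 of 1030 in the others. UCHL1 held 205 and 612, and NEFL 43 and 69, so these 3 genes carried most of the list. They were its only members with at least 80 UMIs, and the summed fold does not show that the other members were higher. NEFM and UCHL1 were the 2 members tested.

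By summed share, most housekeeping groups were near level relative to the endogenous total. Scaled to the spike-ins, which put the median of all genes at -0.18, the mitochondrial mRNAs were at -0.09 and the mitotic regulators at -0.14. Cytosolic ribosomal proteins had 78 of 79 members tested and 0 called, and took 26.99% of UMIs in the low cells and 26.3% in the others. RPLP1, RPL31 and RPL35A were at 0.04, 0.06 and 0.07. The mitochondrial mRNAs, with MT-ATP8 at 0.15, MT-CO2 at 0.02 and MT-CYB at 0.06, had 0 of 13 called and a summed log2 fold of 0.07. The ribosomal RNAs MT-RNR1 and MT-RNR2 were at 0.18 and 0.10. Per cell they differed more, with a joint share of 2.27% at the median of the low cells and 1.86% at that of the others. Above the upper quartile of the 35 lay 7 of the 12 low cells. Above the median of the 35 lay 11 low cells for MT-RNR1 and 6 for MT-RNR2. Nuclear oxidative phosphorylation genes had 0 of 42 called, translation factors 0 of 24, splicing genes 0 of 32, proteasome subunits 0 of 29, chaperones 0 of 22, cytoskeleton genes 0 of 16, nucleolar genes 0 of 15 and glycolysis genes 0 of 10. Across all 1457 tested genes 1.3% were called lower and 0.206% higher. At that share 0 calls in lists of this size do not show that a group is level. Among the most abundant, COX7C was at -0.14, ENO1 at -0.01, ACTB at -0.12, NCL at 0.25 and PSMA7 at 0.30. Cholesterol synthesis genes had 0 of 4 called, with DHCR7 at 0.21 and FDFT1 at 0.14. On the list of integrated stress response genes HSP90B1 was the 1 called of 6, and ATF4, the main transcription factor of that response, was at 0.04.

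Promoter letters were counted for the called genes and set beside all promoters. Of the 19 genes called lower 17 had an entry, and 3 held CHR (17.6%), 4 E2F (23.5%) and 9 CCAAT letters (52.9%). Among the 1219 tested genes with an entry the shares were 9.19%, 6.56% and 41.7%. Of the 13 rule genes 9 had an entry, with 44.4%, 55.6% and 88.9%. The list of kinetochore and spindle genes held CHR in 68.6% of promoters, and that of origin genes held E2F in 46.7%. Among the genes called lower, CDC5L, TMEM18 and ZWINT held CHR, and HNRNPA3, MCM7, TMEM18 and WBP5 held E2F letters. KIAA0101, TK1 and DUT held neither CHR nor E2F letters, and nor did CCNB1 of the rule. The counts are small, and a match is a description of the letters, not a site in use. HIST1H4C, UBE2C, MCM4, MCM5, NEFM, RN7SL1 and RP6-24A23.7 had no entry.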

How the data were processed

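The values deposited by the authors are raw UMI counts of each gene in each cell. Per the submitters' processing notes, the tools were cutadapt 1.2.1 and STAR 2.4.0a and the builds hg19 and GRCh37. The annotation, strand use and handling of multiply mapped reads are not given in the sources used here. A repeated header line (0.0602% of all values) was left out, as were 78 spike-in rows from library totals. There were 18651 gene rows and 0 identical cell columns. No doublet caller was run. Members and gene lists were chosen with earlier results of these data known.

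From these counts, shares of summed UMIs were compared between 12 and 35 cells (Python 3.11.15, pandas 2.3.3, scipy 1.17.1). Since all cells are of 1 run with no separate cultures named, no test was made. edgeR 4.0.16 and DESeq2 1.42.0 only gave scaling factors for alternatives. Named genes are the 13 of the rule, of the called genes the 12 lower and up to 12 higher with the largest change, ranked by the fold nearest to 1 over the leave-one-cell values, and in each of 29 lists the 3 tested members with the most UMIs and any called member; genes outside that rule are marked as picked after their values were seen, and HNRNPA3, CDC5L, TMEM18 and RN7SL1 complete the called genes. The calling code was run on simulated data with planted changes and a small set spread between cells. That run checks the code and cannot show how firm the calls on these cells are. Endogenous UMIs per cell ran from 29325 to 138647. UMIs limit PCR copies, and intervals cover counting error only.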

Additional observations from a re-analysis of the deposited data

How the results depend on the processing

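How many genes were called moved with the settings. All 22 called genes kept their direction under all 16 alternatives computed for them. They were chosen for their fold in these cells, and the alternatives reuse most of the same cells and counts. Their kept direction was thus largely fixed in advance and does not show how firm the calls are. Called lower and higher were 19 and 3. Spike-in scaling, which shifted the median of all genes to -0.18, gave 41 lower and 1 higher, and TMM or DESeq2 scaling kept all 19. Minimums of 100 and 1000 UMIs gave 157 and 2 lower with 71 and 0 higher, and no minimum gave 4839 and 1179. Folds of 1.3 and 2 gave 55 and 0 lower with 23 and 0 higher. Thinned cells gave 9 higher and shared 11 of the 19 lower genes. The 8 lowest cells gave 30 lower and 5 higher, of which 8 and 1 were among the called genes, and the 16 lowest gave 9 and 1, of which 6 and 1 were. Ranks from thinned cells chose 11 of the 12 cells again and gave 15 lower and 5 higher, of which 8 and 2 were among the called genes, so the exchange of 1 cell ended 11 of the 19 lower calls. Ranks without HIST1H4C chose 7 of the 12 cells again and gave 51 lower and 4 higher genes, of which 5 and 0 were among the called genes. They gave a log2 fold of the histone list of -0.0641 and a log2 ratio of median endogenous UMIs of -0.64. In cells numbered above 48, with 521 genes tested, 2 were lower and 0 higher, none of them among the called genes, and the log2 ratio of endogenous UMIs per spike-in UMI was 0.18, against -0.55 up to 48. Other cells limited to the depth range of the 12 gave 7 lower and 2 higher, of which 5 and 1 were among the called genes, with 779 genes tested. The cells under the median in all 3 sets, an alternative chosen after seeing the data, gave 70 lower and 12 higher, of which 8 and 1 were among the called genes. The causes were not tested, except that fewer genes are tested in subsets of cells. No paired analysis was possible because the cells belong to no pairs and no test was made.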
